A study of Mus musculus with 11 samples.

Results

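The skin of mice taken 24 h after a dose of ABBV-075 was compared with the skin of mice given vehicle, gene by gene. ABBV-075, also known as mivebresib, is a small molecule that occupies the bromodomains of the BET proteins. The comparison used 7 of the 11 arrays of the series: vehicle replicates 1, 3 and 4, and the 4 arrays of skin collected 24 h after 1 mg/kg of ABBV-075. The labels do not say whether the replicates are separate mice, so p-values measure the spread between these arrays. The 4 arrays of skin collected 6 h after the same dose shared the normalization, the choice of probe sets and of genes kept, and the estimate of the spread. Of 18194 genes with a probe set annotated to them alone, 13710 were bright enough to be kept, and every one of these was compared. The labels give the tissue as mouse skin and name no strain, sex, age, skin site or dosing route, and they give neither the time at which vehicle skin was taken nor the hour of day of any collection. Each gene is given as log2(intensity + 16) after quantile normalization of the deposited intensities, a scale on which 4.00 is the floor, and a difference is 24 h minus vehicle on that scale.

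BET proteins bind acetylated lysines on histones and help RNA polymerase to elongate transcripts, so that their inhibitors lower some transcripts and raise others. Skin holds many cell types, among them the keratinocytes of the epidermis and hair follicle, dermal fibroblasts, vessels, fat, mast cells, macrophages and the thin muscle layer beneath the dermis. The circadian clock runs in most of these cells: the activators BMAL1 and CLOCK (or NPAS2) bind E-box sequences and switch on the Per and Cry genes, whose proteins repress the activators, while REV-ERB and ROR proteins act on the Arntl gene through their own shared element. Interferons act through factors, IRF9 among them, that bind the interferon-stimulated response element before genes that restrict viruses.

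Promoter windows of 5 genes are shown because the genes belong to the clock and interferon groups whose values are described further on. Each window runs from 250 bases before to 50 bases after the RefSeq start site (GRCm38.p6), is written 5′ to 3′ on the strand of the gene, and carries the searched motif in capitals. Arntl lies on the plus strand at chr7:113207261-113207560 and is marked at the ROR response element ANTAGGTCA, which begins at base 29 of the transcript. Per1, on the plus strand at chr11:69098699-69098998, is marked at the E-box CACGTG. Per3, on the minus strand at chr4:151044616-151044915, is marked at both of its matches to the D-box TTATGTAA, the element of DBP and its relatives. Ifit1, on the plus strand at chr19:34640639-34640938, and Ifitm3, on the minus strand at chr7:141010695-141010994, are marked at matches to the interferon-stimulated response element GAAANNGAA, which in Ifit1 lie on the opposite strand, 2 of its 3 matches overlapping each other.
Arntl: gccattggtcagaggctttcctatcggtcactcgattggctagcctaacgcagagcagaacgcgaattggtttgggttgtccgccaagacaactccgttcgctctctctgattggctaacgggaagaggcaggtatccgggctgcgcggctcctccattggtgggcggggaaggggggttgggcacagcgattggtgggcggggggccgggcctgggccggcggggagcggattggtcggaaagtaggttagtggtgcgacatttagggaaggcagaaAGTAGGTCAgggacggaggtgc
Per1: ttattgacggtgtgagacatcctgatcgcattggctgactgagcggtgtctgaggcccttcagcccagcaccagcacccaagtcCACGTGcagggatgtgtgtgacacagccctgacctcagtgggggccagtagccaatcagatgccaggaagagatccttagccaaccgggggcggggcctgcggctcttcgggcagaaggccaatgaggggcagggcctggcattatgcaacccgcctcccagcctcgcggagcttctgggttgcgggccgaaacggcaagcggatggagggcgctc
Per3: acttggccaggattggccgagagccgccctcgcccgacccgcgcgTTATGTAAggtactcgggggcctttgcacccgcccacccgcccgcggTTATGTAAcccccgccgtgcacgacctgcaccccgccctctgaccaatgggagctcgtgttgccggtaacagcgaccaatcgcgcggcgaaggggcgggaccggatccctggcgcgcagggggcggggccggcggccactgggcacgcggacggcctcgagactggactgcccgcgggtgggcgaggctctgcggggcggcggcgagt
Ifit1: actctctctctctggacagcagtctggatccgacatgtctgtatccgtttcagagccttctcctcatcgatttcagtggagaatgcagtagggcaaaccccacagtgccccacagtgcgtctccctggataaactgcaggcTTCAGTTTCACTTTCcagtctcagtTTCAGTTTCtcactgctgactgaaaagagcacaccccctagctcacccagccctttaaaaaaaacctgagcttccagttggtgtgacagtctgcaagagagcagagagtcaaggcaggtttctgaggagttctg
Ifitm3: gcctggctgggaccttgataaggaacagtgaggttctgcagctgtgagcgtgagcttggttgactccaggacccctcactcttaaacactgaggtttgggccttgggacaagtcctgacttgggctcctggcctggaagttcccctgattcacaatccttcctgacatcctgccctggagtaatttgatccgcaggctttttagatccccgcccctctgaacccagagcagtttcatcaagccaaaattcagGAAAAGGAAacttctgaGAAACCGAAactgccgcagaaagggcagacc
Both strands were searched in all 32851 mouse windows of this length (some genes have more than 1), and the windows shown held 0 matches to the other 3 motifs, so that none overlapped. The E-box was in 7.15% of the windows, the D-box in 0.938%, the ROR element in 0.661% and the interferon element in 8.56%. Among measured genes with a window, an E-box was found for 3 of 6 clock repressors (Per1, Cry1 and Ciart, which lay near the floor and differed by -0.41 ± 0.43), 1 of 8 clock output genes and 0 of 5 clock activators. The interferon element was found for 8 of 13 antiviral effectors and 5 of 16 RNA sensor and interferon signalling genes. Over all genes kept with a window, the shares per gene were 11.2% for the E-box and 8.69% for the interferon element. A match is a description of these letters and no measure of binding.

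The arrays differed in brightness before normalization. The vehicle arrays had a trimmed mean intensity of 225 ± 19.4 (SD, n = 3), against 138 ± 30.4 (SD, n = 4) at 24 h, without overlap (exact permutation test, two-sided, p = 0.0571, 35 splits, of which the smallest possible p is 0.0286). As deposited, the median gene lay 0.62 below vehicle on the log2 scale, and after quantile normalization 0.02 below. The 5′ to 3′ ratio of actin, which is low in shortened RNA, was 0.547 ± 0.0563 in vehicle and 0.406 ± 0.145 at 24 h (exact permutation p = 0.171), with the lowest value, 0.198, in 24 h replicate 2. Gapdh gave 0.832 ± 0.117 and 0.943 ± 0.112 (exact permutation p = 0.314). The label of the tissue was matched by its markers: 9 measured genes of suprabasal keratinocytes averaged 11.92 to 12.33 in the 7 arrays. Skeletal muscle genes were bright too, 21 of them averaging 11.06 to 12.67.

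No gene passed the test over all genes. In limma's fit, 0 genes were called higher and 0 lower at an adjusted p under 0.05, the smallest adjusted p being 0.0868 for Hspa12b, so every difference in single genes here is a value and not a call. At an unadjusted p under 0.05 there were 433 genes higher (3.16% of those tested) and 613 lower (4.47%), 7.63% in either direction. All 4 arrays at 24 h lay above all 3 vehicle arrays for 698 genes (5.09%) and below them for 826 (6.02%), 11.1% in either direction. These splits rest on bringing the arrays to 1 level. With the deposited intensities the counts at the same unadjusted p were 22 up and 3238 down, with 47 and 5524 beyond overlap, and 6 genes were called lower (Dbp, Ear3, Hspa12b, Oasl2, Serpina1b and Slfn1). After median scaling the counts were 210 and 2444, with 252 and 2813 beyond overlap, and none was called.

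One array on each side often held the extreme value. Of the 613 genes lower at an unadjusted p under 0.05, 24 h replicate 4 was the lowest 24 h array in 56.9%, and vehicle replicate 1 was the highest vehicle array in 63.8%. Over all 7181 genes lower on average these shares were 46.0% and 51.9%. Without vehicle replicate 1 the counts at an unadjusted p under 0.05 fell to 265 higher and 290 lower. Limma's array weights, which give noisy arrays less say, set vehicle replicate 3 at 4.85, vehicle replicate 4 at 1.54, vehicle replicate 1 at 0.659 and 24 h replicate 4 at 0.27. The weights were estimated from these same arrays, and vehicle replicate 3 carried most of the vehicle mean in that fit. With these weights, 25 genes were called higher and 34 lower, and 53 of these 59 did not overlap between the groups. The 59 were 0.43% of all genes tested, and 8 of them were among the 22 measured clock genes: Arntl, Npas2, Per1, Per2, Per3, Nr1d2, Bhlhe40 and Dbp.

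**Figure D1:**
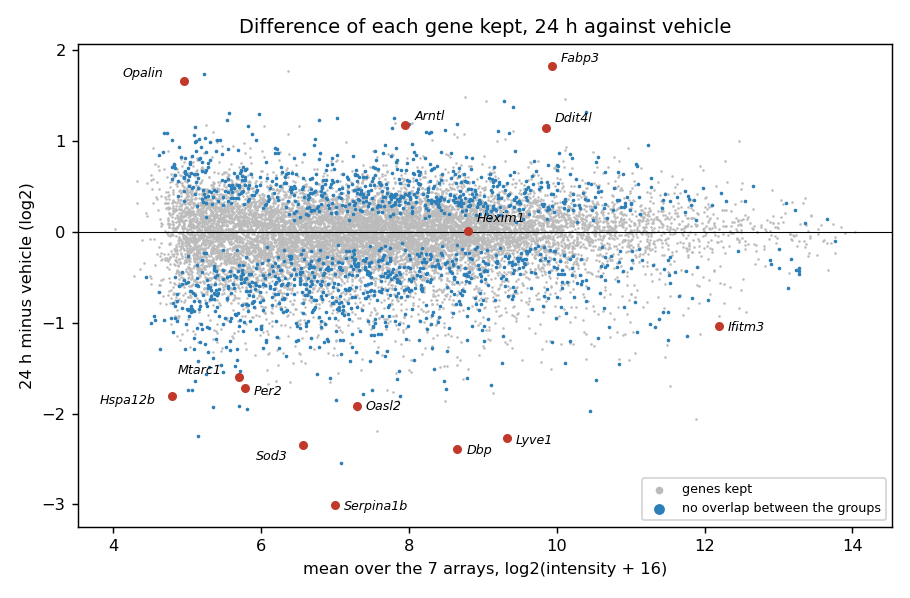
Difference between 24 h and vehicle for each of the 13710 genes kept (vertical axis, log2) against the mean over the 7 arrays (horizontal axis, log2(intensity + 16)); blue points are the 1524 genes whose groups do not overlap and red points are the genes labelled in the plot. Serpina1b, Dbp and Sod3 lie lowest among the labelled genes and Fabp3 highest, while Hexim1 lies at 0.01.

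Among the genes lower at 24 h, Hspa12b had the smallest p of all. It encodes an atypical HSP70 relative of blood vessel endothelium and read 5.91, 6.07 and 5.52 in vehicle against 4.00, 4.00, 4.08 and 4.00 at 24 h. All vehicle arrays therefore stood clear of the floor and 3 of the 4 arrays at 24 h sat on it. At 6 h Hspa12b read 4.00 to 4.89, so the gene passed the brightness filter through the 3 vehicle arrays alone, the group where it was higher. Its place by p is a description only. The difference was -1.81 ± 0.23 (SE; limma adjusted p = 0.0868) and -1.94 to -1.66 with any 1 array left out. Mtarc1, a mitochondrial molybdenum enzyme, read 6.51, 7.03 and 6.30 in vehicle and 4.75 to 5.48 at 24 h, a difference of -1.60 ± 0.22 (adjusted p = 0.11), and its second probe set lay lower as well.

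Serpina1b had the largest difference of any gene kept. It is one of several nearly identical mouse genes for alpha-1-antitrypsin, and its probe sets can pick up its copies, so the member that differed is uncertain. Vehicle skin read 8.64, 8.99 and 8.51 and 24 h skin 6.82, 5.67, 5.65 and 4.70 in replicates 1 to 4, a difference of -3.01 ± 0.47 (adjusted p = 0.20). A second probe set of the same family gave -2.88. Ear3, an eosinophil-associated ribonuclease of another family of close copies, differed by -2.54 ± 0.63, and Sod3, the extracellular superoxide dismutase, by -2.35 ± 0.60. In Sod3 the arrays at 24 h were spread from 4.44 to 7.33, and its other probe set was at the floor throughout.

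Lyve1, the hyaluronan receptor of lymphatic vessels and of some tissue macrophages, read 11.51, 10.34 and 10.02 in vehicle and 8.62, 9.96, 7.73 and 7.10 at 24 h. The groups did not overlap, though 24 h replicate 2 lay only just below the lowest vehicle array, and the difference was -2.27 ± 0.72, with -1.56 from a second probe set. Cyp17a1, a steroid-synthesis enzyme, read 6.32 to 6.49 in vehicle and was at the floor in 3 of 4 arrays at 24 h (-2.25 ± 0.76). Plac8, a small cysteine-rich protein of immune cells, differed by -1.97 ± 0.77. Aldh1a2, which makes retinoic acid, differed by -1.74 ± 0.35, and Tdp1, a DNA repair phosphodiesterase, by -1.29 ± 0.24, both with arrays at the floor at 24 h. Aldh1a2 read 5.49 to 6.34 in vehicle and 4.00 to 5.14 in the arrays at 6 h and 24 h. It therefore passed the brightness filter through the vehicle arrays alone, the group where it was higher, and its difference is a description only. Kirrel, a nephrin-like adhesion protein, stood well clear of the floor, at 7.31 to 7.43 in vehicle and 6.11 to 6.65 at 24 h (-0.99 ± 0.19).

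In the other direction Arntl came first by p and is described with the clock. A set of genes of little-known function followed, Ccdc138 at 6.22 to 6.40 in vehicle and 7.10 to 7.24 at 24 h (0.87 ± 0.15, adjusted p = 0.25), and A430046D13Rik at 5.20 to 5.54 and 6.29 to 6.52 (1.01 ± 0.17). Both groups were tight, and leaving out any 1 array moved these differences to 0.80 to 0.91 and 0.91 to 1.07. Ddit4l, a stress-induced relative of the mTOR regulator REDD1, read 8.79, 9.30 and 9.51 in vehicle and 10.29 to 10.36 at 24 h, a difference of 1.15 ± 0.23. Its other 2 probe sets gave 0.58 each.

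Several of these higher readings were carried by 1 probe set. Sp1, a general transcription factor for GC-rich promoters, differed by 0.87 ± 0.19 at its brightest probe set, from 9.43 to 9.64 in vehicle and 10.003 to 10.63 at 24 h, but by 0.02 at an almost equally bright one. Snapc3, a subunit of the complex that starts small nuclear RNA genes, gave 1.10 ± 0.23 at 1 probe set and 0.43, -0.16 and -0.33 at the others. Opalin, a myelin gene, was at the floor in all 3 vehicle arrays and at 5.14 to 6.22 at 24 h (1.66 ± 0.37), with -0.15 at its other probe set. It passed the brightness filter through arrays of treated skin alone. Kcnq1ot1, a long antisense RNA of the Kcnq1 locus, gave 1.09 ± 0.25 and between -0.44 and 0.42 at 5 others.

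Fabp3, the fatty acid carrier of heart and muscle, read 8.11, 9.39 and 9.18 in vehicle and 10.14, 10.91, 11.35 and 10.48 at 24 h, a difference of 1.83 ± 0.53. Vehicle replicate 1 was the lowest array, and without it the value was 1.43, while a dim second probe set gave 0.13. Smr2, a salivary-type secreted protein, differed by 1.44 ± 0.40 (1.02 without vehicle replicate 1), Mt4, the metallothionein of stratified epithelium, by 1.32 ± 0.43 and Krt42, a type I keratin, by 1.11 ± 0.24. Pdk4, the kinase that holds back pyruvate oxidation, lay at 9.02 to 9.46 in vehicle and at 11.03, 11.29 and 11.83 in 24 h replicates 2, 3 and 4, but at 8.78 in replicate 1 (1.47 ± 0.58). The groups of Pdk4 therefore overlapped through 1 array, without which the difference was 2.12.

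The core clock differed between the groups in both arms, activators lying higher at 24 h and most repressors lower. Arntl, the gene of BMAL1, read 7.56, 7.24 and 7.03 in vehicle and 8.36, 8.38, 8.69 and 8.39 at 24 h. All 4 arrays at 24 h stood above all vehicle arrays, and replicates 1, 2 and 4 nearly coincided. The difference was 1.18 ± 0.19, or 2.26-fold (adjusted p = 0.25, and 0.019 with array weights), and 1.06 to 1.31 with any 1 array left out. Its second, dimmer probe set gave 0.67 and also did not overlap.

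The partners of BMAL1 lay higher too. Npas2 read 5.57, 5.21 and 5.01 in vehicle and 6.04, 6.21, 6.39 and 6.73 at 24 h, a difference of 1.08 ± 0.25. Clock read 8.68 to 8.79 in vehicle and 8.85 to 9.27 at 24 h, a smaller difference of 0.35 ± 0.15 that also did not overlap, but lay below vehicle in the deposited intensities (-0.39) and after median scaling (-0.08). Arntl2, a second BMAL, differed by 0.28 ± 0.35 with overlap, and Rora, an activator of Arntl, by 0.00 ± 0.31. Of 5 measured activators, 3 did not overlap, where 5.09% of all genes were higher without overlap, and the median of the list was 0.35 (0.29 to 0.43 with any 1 array left out) beside -0.02 for all genes.

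Their targets, the Period genes, which encode the repressors of the loop, lay on the other side. Per1 read 7.46, 8.25 and 7.83 in vehicle and 6.31, 6.12, 5.18 and 7.34 at 24 h, a difference of -1.61 ± 0.41. Per2 read 6.37, 6.90 and 6.997 against 4.71, 4.52, 5.39 and 5.54 (-1.71 ± 0.38). Per3 read 7.60, 8.44 and 8.09 against 6.53, 6.09, 7.02 and 7.24 (-1.32 ± 0.34). In none of the 3 did the groups overlap, and the other probe sets of Per2 (2 of 2) and Per3 (5 of 5) lay lower as well, Per3 by -0.46 to -1.40. The adjusted p was 0.44 for Per2 and 0.53 for Per1 and Per3 in limma's fit with equal weights, and 0.019 to 0.027 with array weights.

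Nr1d2, which encodes REV-ERB beta, the repressor of Arntl, read 10.71, 11.31 and 11.32 in vehicle and 10.003, 9.84, 10.68 and 10.59 at 24 h, a difference of -0.83 ± 0.26. Nr1d1, the gene of REV-ERB alpha, fell below the brightness filter: it read 4.66, 6.30 and 5.84 in vehicle and 4.00, the floor, in all 4 arrays at 24 h. Bhlhe40, a repressor that competes for E-boxes, differed by -1.07 ± 0.37 and overlapped through 24 h replicate 4 alone. The cryptochromes, partners of the Period proteins, differed from each other. Cry1 lay at 6.42 to 6.82 in vehicle and 6.78 to 7.25 at 24 h (0.41 ± 0.17, and -0.13 as deposited). Cry2 differed by -0.21 ± 0.31, at 7.09, 7.23 and 7.34 in vehicle and 7.07, 6.68, 6.45 and 7.84 in 24 h replicates 1 to 4. In Cry2, 24 h replicates 1 to 3 lay below every vehicle array and replicate 4 above them. Of 8 measured repressors 4 lay lower without overlap, against 6.02% of all genes, with a median of -0.95 (-1.21 to -0.80 with any 1 array left out).

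Dbp, a PAR-domain factor that the clock drives directly through E-boxes, showed the widest swing of the clock genes. It read 9.22, 10.39 and 10.44 in vehicle and 7.06, 6.79, 8.12 and 8.55 at 24 h, a difference of -2.39 ± 0.45, so that vehicle was 5.23-fold higher (adjusted p = 0.37, and 0.013 with array weights). The second probe set gave -2.26. The other output genes named here differed less and overlapped. Wee1, a kinase that restrains mitosis, differed by -0.73 ± 0.38 (-1.13 without 24 h replicate 4), and Tef, a relative of Dbp, by -0.67 ± 0.38 (-1.04 without vehicle replicate 1). Klf9, a glucocorticoid-responsive factor, differed by -0.58 ± 0.27 (-0.38 without 24 h replicate 2) with all 6 of its other probe sets on the same side. Hlf, the third PAR-domain gene, differed by 0.06 ± 0.32. The list had 7 of 9 members lower, 1 of them without overlap (6.02% of all genes), and a median of -0.51 that was -0.29 without 24 h replicate 2.

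**Figure D2:**
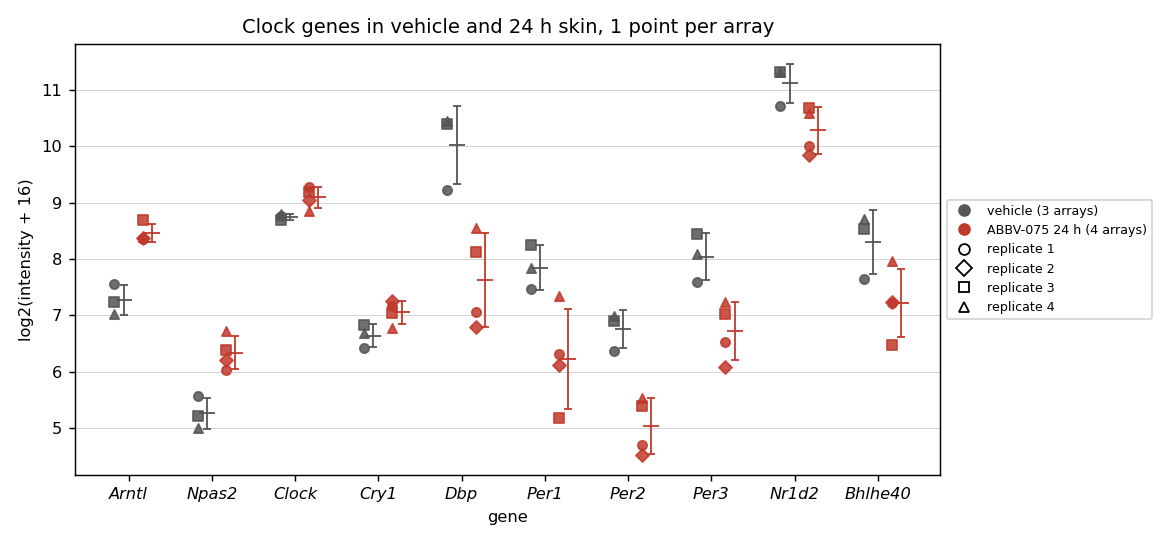
Level of 10 clock genes in each array (log2(intensity + 16)), vehicle in grey (n = 3) and 24 h after ABBV-075 in red (n = 4), with mean and SD beside the points and the replicate number as the point shape. Arntl, Npas2 and Clock lie higher and Dbp, Per1, Per2, Per3 and Nr1d2 lower at 24 h without overlap; 24 h replicate 4 (triangle) is the 24 h array nearest to vehicle for Dbp, Per1, Per2 and Per3.

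Within the 24 h group the arrays were ordered similarly for several of these genes. In Dbp, Per1, Per2, Per3 and Bhlhe40 it was 24 h replicate 4 that lay nearest to vehicle, and for Wee1 its 8.08 stood above every vehicle array. The lowest vehicle array was replicate 1 for Dbp, Per1, Per2, Per3, Nr1d2 and Bhlhe40. At 6 h, which shares the vehicle arrays and is therefore no separate support, the differences were 0.22 for Arntl, -0.01 for Dbp, -0.13 for Per1, -0.18 for Per2 and 0.15 for Per3. Not all clock genes lay near vehicle at 6 h. Cry1 read 7.41 to 7.69 at 6 h, above its 6.42 to 6.82 in vehicle. Npas2 read 4.29 to 5.29 against 5.01 to 5.57, and Nr1d1 4.00 to 5.13 against 4.66 to 6.30. The 6 h list medians were 0.03 for activators, 0.0007 for repressors and 0.01 for output genes. Since the labels give no hour of collection, time of day and treatment cannot be told apart for these genes.

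Interferon-stimulated genes formed the second group. The proteins that block viruses directly were lower in 15 of 16 measured members, 6 of them without overlap against 6.02% of all genes. Their median was -1.02 (-1.30 to -0.92 with any 1 array left out, and -0.76 with array weights). Ifitm3, a membrane protein that stops virus entry and one of the brightest transcripts of the set, read 13.21, 12.54 and 12.59 in vehicle and 12.04, 11.47, 11.76 and 11.72 at 24 h. Every vehicle array lay above every 24 h array, with vehicle replicate 1 the highest, and the difference was -1.03 ± 0.20 (adjusted p = 0.41). Its neighbour in function Ifitm2 read 11.53 to 12.25 and 10.45 to 11.17 (-1.02 ± 0.25).

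The genes of the oligoadenylate synthetase, Mx and Ifit families had larger differences and wider spreads. Oasl2 read 9.37, 7.49 and 8.31 in vehicle and 6.54, 7.03, 6.51 and 5.79 at 24 h (-1.92 ± 0.43, and -1.41 without vehicle replicate 1). Ifit1, which recognises the caps of viral RNA, read 8.62, 7.59 and 8.98 against 6.75, 7.58, 7.16 and 4.96 (-1.79 ± 0.60). Both vehicle replicate 1 in Oasl2 and 24 h replicate 4 in Ifit1 stood away from their groups. Its relative Ifit2 read 8.71, 7.63 and 8.91 against 6.74, 7.32, 7.32 and 4.46 (-1.96 ± 0.70), and -1.30 without 24 h replicate 4. Mx1, a GTPase that traps viral nucleocapsids, differed by -1.33 ± 0.38, the groups meeting at 6.59 in vehicle replicate 3 and 6.61 in 24 h replicate 2. Mx2 was below the filter, at 4.96 to 5.20 in vehicle and at the floor in all 4 arrays at 24 h, and was the 1 gene called when no filter was used (limma adjusted p = 0.001). It was also at the floor in all 4 arrays at 6 h, so its own spread in that fit came from the vehicle arrays alone.

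Sensors and signalling genes of the pathway followed with a smaller median of -0.43, 15 of 17 members being lower and 4 of them without overlap, against 6.02% of all genes. Dhx58, the gene of the RNA sensor LGP2, read 7.38, 6.14 and 6.23 in vehicle and 5.56, 5.53, 4.91 and 4.22 at 24 h (-1.53 ± 0.40, and -1.11 without vehicle replicate 1). Ifih1, which encodes MDA5, differed by -0.89 ± 0.40, Irf7, which amplifies interferon production, by -1.14 ± 0.48 and Irf9, a DNA-binding factor of the interferon response, by -0.55 ± 0.22, and the groups of all 3 did not overlap. The median of this list was -0.28 without 24 h replicate 4, -0.26 without vehicle replicate 1 and -0.13 with array weights. Helz2, a nuclear receptor coactivator that interferon also induces, was the tightest of these genes, at 7.34 to 7.65 in vehicle and 6.44 to 6.67 at 24 h (-0.94 ± 0.19), and -1.03 to -0.88 with any 1 array left out.

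**Figure D3:**
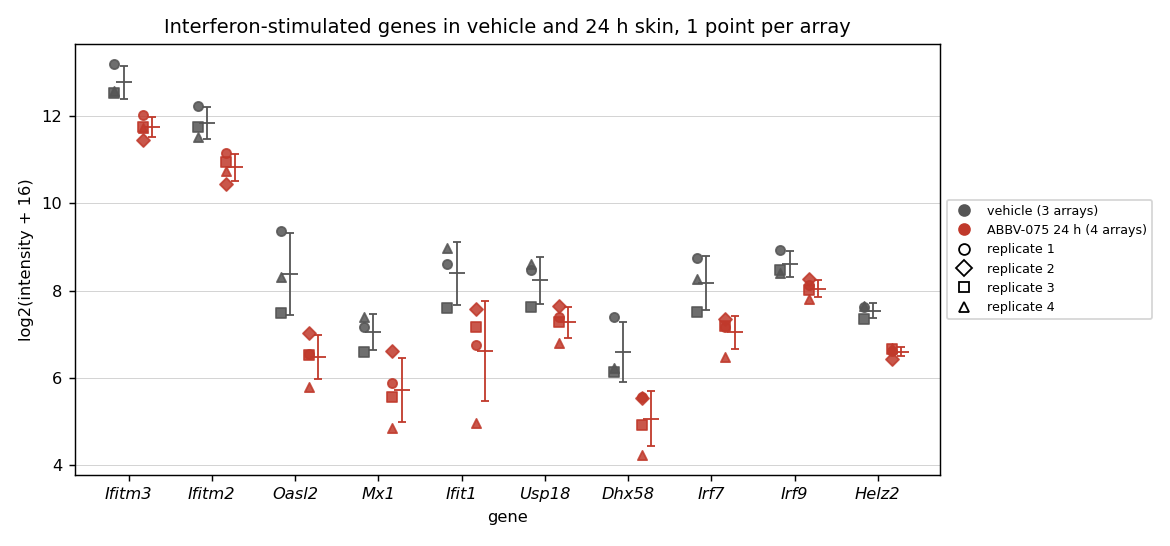
Level of 10 interferon-stimulated genes in each array (log2(intensity + 16)), vehicle in grey (n = 3) and 24 h in red (n = 4), with mean and SD beside the points. For Ifitm3, Ifitm2, Oasl2, Dhx58, Irf7, Irf9, Helz2 and, narrowly, Ifit1 every 24 h array lies below every vehicle array. The lowest array for Oasl2, Mx1, Ifit1, Dhx58, Irf7 and Irf9 is 24 h replicate 4 (triangle).

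Antigen presentation genes were lower for most members and more uneven. Of 13 antigen processing and guanylate-binding genes 11 were lower, with a median of -0.61 that was -0.32 without vehicle replicate 1. Tapbp, the chaperone that loads MHC class I, read 10.10, 10.10 and 10.48 in vehicle and 9.38 to 9.79 at 24 h (-0.63 ± 0.19), and B2m, the class I light chain, 13.37 to 13.55 and 12.86 to 13.33 (-0.43 ± 0.20), neither with overlap. Gbp3 differed by -1.41 ± 0.57 and overlapped (-0.93 without 24 h replicate 4 and -0.89 without vehicle replicate 1). MHC class II genes were lower in 5 of 6, among them H2-DMa, which edits class II peptides (-0.92 ± 0.30, no overlap), and Cd74, the invariant chain (-0.84 ± 0.36, with overlap). The sixth, H2-Eb1, divided the arrays irrespective of group, at 7.52, 10.21 and 6.42 in vehicle and 10.09, 6.76, 10.69 and 8.81 at 24 h.

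Macrophage, complement and Fc receptor genes were lower on average. For macrophage and complement genes the size of that difference came largely from 24 h replicate 4. The Fc receptor median moved more when vehicle replicate 1 was left out. Of 18 markers of macrophages and dendritic cells, 17 read lower, with a median of -0.90 that was -0.26 without that array. Of the 18, 0 were separated without overlap, where 6.02% of all genes were lower without overlap, and 0 of 18 is near that share. Cd68, a lysosomal macrophage protein, read 9.99, 8.57 and 8.26 in vehicle and 8.44, 7.65, 8.59 and 5.99 at 24 h. Vehicle replicate 1 was the highest and 24 h replicate 4 the lowest of the 7, and the other 5 arrays overlapped. The difference was -1.28, and -0.72 without 24 h replicate 4 or -0.74 without vehicle replicate 1. Folr2 and Ctss, a folate receptor and a protease of resident macrophages, differed by -1.51 ± 0.75 and -1.33 ± 0.61, and by -0.78 and -0.68 without 24 h replicate 4.

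All 10 measured complement genes were lower, 4 without overlap (6.02% of all genes), with a median of -1.05 (-0.34 without 24 h replicate 4). Serping1, the inhibitor of C1, read 12.53, 12.47 and 12.25 in vehicle and 12.14, 11.54, 12.07 and 9.32 at 24 h, so that replicates 1 to 3 lay near vehicle and replicate 4 far below (-1.15, and -0.49 without it). C5ar1, the receptor of the C5a fragment, was lower by a more even amount, at 7.69 to 7.99 in vehicle and 7.44, 6.999, 7.03 and 5.53 at 24 h (-1.12 ± 0.38, and -0.72 without 24 h replicate 4). The 6 Fc receptor genes were all lower with a median of -1.22, which was -0.80 without 24 h replicate 4 and -0.63 without vehicle replicate 1. None was free of overlap, which in a list of 6 is near the 6.02% of all genes. Fcer1g, the shared signalling chain of these receptors, differed by -1.78 ± 0.73, and by -1.05 without 24 h replicate 4.

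Chemokine and chemokine receptor genes were lower in 15 of 18, with a median of -0.80 (-0.25 without 24 h replicate 4). Ccl8 and Ccl11, attractants of monocytes and eosinophils, differed by -2.06 ± 0.87 and -1.42 ± 0.60, and by -1.10 and -0.91 without that array. Ccl11 did not overlap between the groups, with 7.90 to 8.57 in vehicle and 5.31 to 7.87 at 24 h. Cxcl14, a chemokine of keratinocytes, was 1 of 3 members that lay higher, at 8.45 to 8.89 in vehicle and 8.68, 10.36, 8.57 and 10.87 at 24 h (1.00 ± 0.49, and 0.58 without 24 h replicate 4). Its other probe set, nearly as bright, gave 0.19, with 24 h replicates 1 to 3 at 8.06 to 8.35, below the lowest vehicle array at 8.46.

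Cd180, a toll-like receptor relative of B cells and macrophages and a reported blood marker of BET inhibition, was lower without such dependence on 1 array. It read 7.20, 6.72 and 6.58 in vehicle and 6.14, 5.70, 6.18 and 5.83 at 24 h, a difference of -0.87 ± 0.26 (adjusted p = 0.53), and -0.99 to -0.67 with any 1 array left out. Ccr2, a monocyte chemokine receptor, is on the same list of reported markers and overlapped widely (-0.92 ± 0.77, -0.22 without 24 h replicate 4 and -0.52 without vehicle replicate 1). Hexim1, the inhibitor of the elongation kinase P-TEFb that is used as a marker of BET inhibition, read 8.70 to 8.93 in vehicle and 8.72 to 8.86 at 24 h, a difference of 0.01 ± 0.17. At 6 h, against the same vehicle arrays, its difference was 1.10 ± 0.17. The list of reported markers may rest in part on these samples and is no independent evidence. Of its 6 measured members 1, Cd180, was lower without overlap, beside 6.02% of all genes, and 1 gene in so short a list is no result about the list. Of 12 measured BET and bromodomain genes and 12 P-TEFb and 7SK genes, 0 had an unadjusted p under 0.05 in limma's fit. Over all genes this share was 7.63%, and a count of 0 in lists of 12 is near it. In the first list 1 gene lay higher without overlap (5.09% of all genes). The medians were -0.01 and 0.13. The first ran from -0.10 (without vehicle replicate 1) to 0.07 (without vehicle replicate 4). The second was 0.02 without 24 h replicate 4 and 0.05 without vehicle replicate 1.

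The connective tissue of the dermis was lower across its main gene groups. Of 23 collagen and collagen-processing genes 21 were lower and 9 of the 23 were lower without overlap (6.02% of all genes), with a median of -0.71 (-0.39 without 24 h replicate 4). Col6a2, a chain of the beaded collagen around cells, read 11.57, 11.13 and 11.19 in vehicle and 10.68, 10.27, 10.20 and 9.87 at 24 h, and the difference was -1.05 ± 0.23 (adjusted p = 0.44). The groups of Col6a2 stood apart in every array, its second probe set gave -1.22, and leaving out 1 array gave -1.19 to -0.91. Col15a1 and Col4a1, collagens of basement membranes, differed by -1.01 ± 0.34 and -0.83 ± 0.30, also without overlap.

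Elastic fibre, proteoglycan and glycoprotein genes were lower in 17 of 19, with a median of -0.64 that was -0.28 without 24 h replicate 4. Fn1, fibronectin, read 11.95, 11.20 and 11.87 in vehicle and 11.17, 10.18, 10.75 and 8.79 at 24 h (-1.45 ± 0.45), and -0.97 without that array. Its second, dimmer probe set gave -0.04. Fmod, fibromodulin, was 1 of the 2 exceptions, at 6.51 to 6.58 in vehicle and 6.52, 7.34, 7.31 and 7.75 at 24 h (0.68 ± 0.25). The other probe sets of Fmod gave -0.12 to 0.66. Timp1, an inhibitor of matrix proteases, differed by -1.03 ± 0.45 without overlap.

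Markers of the cells that make and supply this tissue were lower in the same arrays. Dermal fibroblast markers were lower in 14 of 16 with a median of -0.59, and -0.20 without 24 h replicate 4. Pdgfra, the growth factor receptor that marks dermal fibroblasts, read 11.52, 10.59 and 10.50 in vehicle and 10.24, 10.09, 10.23 and 8.12 at 24 h (-1.20 ± 0.48, and -0.68 without that array). Blood endothelial markers were lower in 17 of 18, 5 without overlap (6.02% of all genes), with a median of -0.63, -0.36 without 24 h replicate 4 and -0.37 without vehicle replicate 1. Ramp2, a receptor partner for adrenomedullin, was among them, at 8.52 to 9.41 in vehicle and 7.08 to 8.30 at 24 h (-1.07 ± 0.33). In whole skin, fewer cells of a type and less RNA per cell cannot be told apart.

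Fat and mast cell markers showed the same unevenness. Adipocyte markers were lower in 10 of 11 with a median of -1.23, which was -0.40 without 24 h replicate 4 and -0.79 without vehicle replicate 3. Pparg, the master regulator of fat cells, read 8.43, 8.57 and 7.98 in vehicle and 7.91, 6.90, 7.38 and 5.81 at 24 h, without overlap (-1.33 ± 0.43, and -0.94 without that array). Mast cell markers were lower in 7 of 8 with a median of -0.71, which was -0.40 without 24 h replicate 4 and -0.46 without vehicle replicate 1. Mcpt4, a mast cell chymase, read 8.04 to 8.37 in vehicle and 7.77, 7.65, 7.84 and 5.16 at 24 h, so that the first 3 arrays lay just below vehicle and the last far below (-1.12 ± 0.56, and -0.48 without it).

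**Figure D4:**
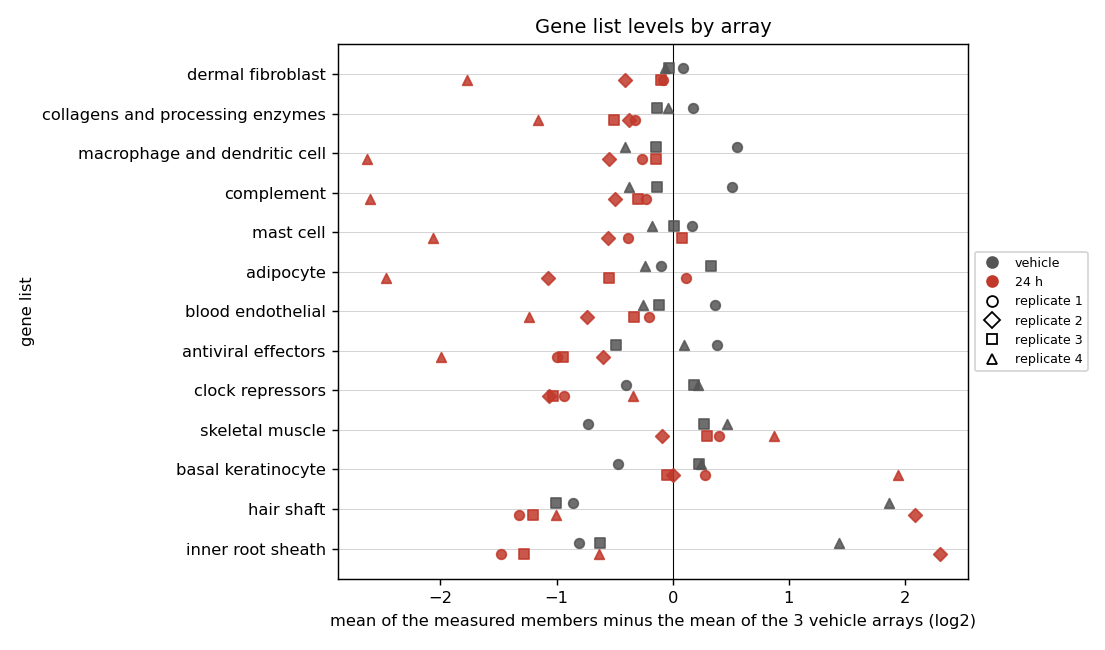
Mean level of the measured members of 13 gene lists in each array, less the mean of the 3 vehicle arrays (horizontal axis, log2), vehicle in grey and 24 h in red with the replicate number as the point shape. The triangle of 24 h replicate 4 lies apart below for fibroblast, macrophage, complement, mast cell and adipocyte genes and above for basal keratinocyte genes, while hair shaft and inner root sheath genes are high in vehicle replicate 4 and 24 h replicate 2.

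Basal keratinocyte markers ran the other way in 24 h replicate 4. All 12 were higher at 24 h, none without overlap, which in a list of 12 is near the 5.09% of all genes. Their median was 0.56, and it was 0.08 without 24 h replicate 4, 0.29 without vehicle replicate 1 and -0.12 in the deposited intensities of all 7 arrays. The mean of these markers was 8.61, 9.31 and 9.32 in vehicle, 9.36, 9.08 and 9.03 in 24 h replicates 1 to 3, and 11.02 in replicate 4. Lama3, a chain of the laminin that anchors the epidermis, read 9.64 in that array against 6.96 to 7.59 in the other 6. Whether the make-up of the tissue piece in 24 h replicate 4 had a part in the differences of the dermal, immune and fat genes was not tested. For many of the genes and lists named here, though not all, the value without it is printed where it moved by over 1.5 times.

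**Figure D5:**
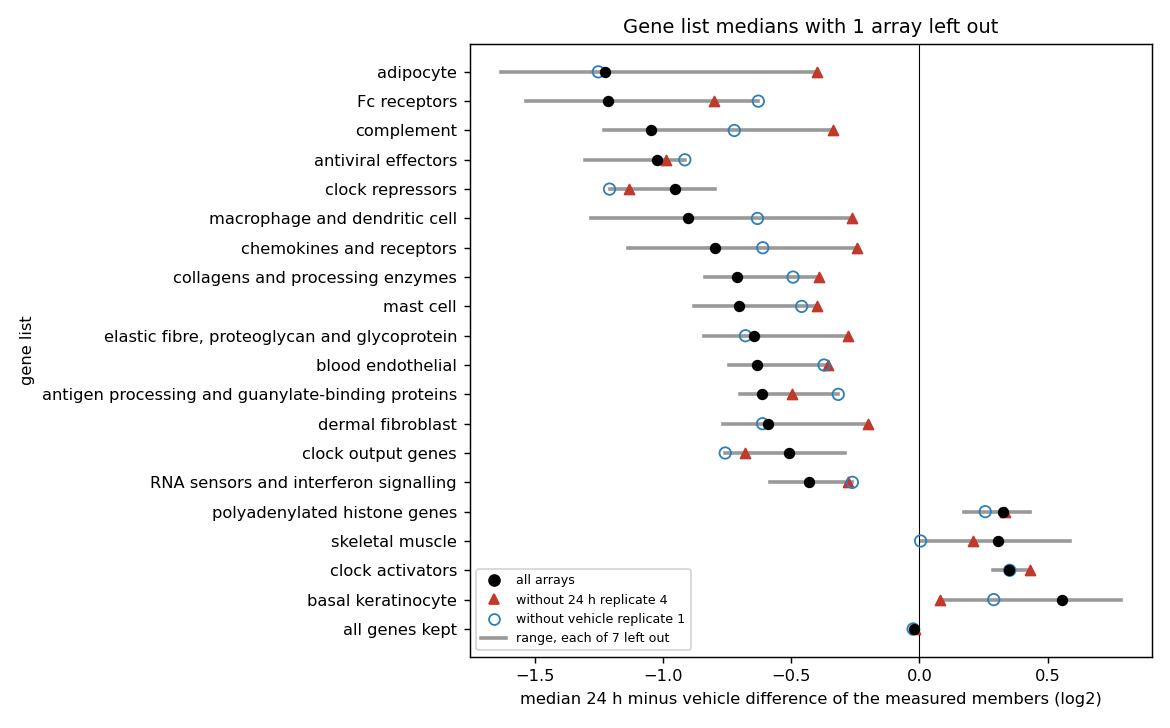
Median difference between 24 h and vehicle (log2) of the measured members of 19 gene lists and of all genes kept, with all arrays (black), without 24 h replicate 4 (red triangle), without vehicle replicate 1 (blue ring) and the range with each of the 7 arrays left out (grey bar). The antiviral and clock repressor medians stay between -1.30 and -0.80, while the macrophage, complement, adipocyte and fibroblast medians move to between -0.40 and -0.20 without 24 h replicate 4.

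The barrier genes of the upper epidermis had a median of 0.04 over 18 members, 10 higher and 8 lower, and -0.10 to 0.11 with 1 array left out. Flg, filaggrin, which packs keratin in the cornified layer, read 9.60, 9.91 and 9.96 in vehicle and 9.59, 8.79, 9.22 and 8.73 at 24 h, narrowly without overlap (-0.74 ± 0.25). At 6 h, against the same vehicle arrays, it differed by 0.58. Elovl4, which makes the very long fatty acids of the barrier, lay higher without overlap, at 11.54 to 11.91 and 12.05 to 12.30 (0.49 ± 0.17, and -0.10 as deposited). Sprr1a, a cornified envelope protein, differed by -1.62 ± 0.72 with overlap, and by -0.98 without vehicle replicate 4.

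Skeletal muscle genes were higher in 20 of 21, 3 without overlap (5.09% of all genes), with a median of 0.31 that was -0.07 in the deposited intensities. The median was 0.00 without vehicle replicate 1, 0.49 without 24 h replicate 2, 0.50 without vehicle replicate 3 and 0.59 without vehicle replicate 4. Myoz1, a Z-disc protein, read 9.96, 10.63 and 11.001 in vehicle and 11.01 to 11.36 at 24 h (0.64 ± 0.25, and 0.36 without vehicle replicate 1). Hair genes separated arrays and not groups: the inner root sheath gene Tchh read 7.69, 8.23 and 12.09 in vehicle and 6.83, 12.75, 7.53 and 7.67 at 24 h, and the keratin Krt27 9.94 in vehicle replicate 4, 10.01 in 24 h replicate 2 and 4.00 to 5.34 elsewhere. The median of the hair shaft list was -0.35, with a range of -1.07 to 0.75 with 1 array left out.

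Klf2, the shear-responsive factor of endothelium and lymphocytes, read 9.49, 9.40 and 9.06 in vehicle and 8.75, 8.59, 8.40 and 7.84 at 24 h (-0.93 ± 0.23). Klf15, a metabolic factor that glucocorticoids induce, differed by -1.22 ± 0.44, with 7.17 and 7.06 in 24 h replicates 1 and 3 and 5.66 and 5.40 in 2 and 4. Atf3, a stress-induced immediate early gene, read 7.32, 7.77 and 7.71 in vehicle and 6.53, 7.03, 6.64 and 6.63 at 24 h, one of the more even of these differences (-0.89 ± 0.25, and -1.01 to -0.80 with any 1 array left out). Bcl3, a nuclear partner of NF-kB, differed by -1.04 ± 0.34 and Zfp36, which destabilises inflammatory transcripts, by -0.50 ± 0.24, both without overlap.

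Immediate early genes had a median of -0.13 with 2 of 15 lower without overlap, Kruppel-like factors -0.04 with 2 of 11, and NF-kB genes -0.25 with 1 of 11, where 6.02% of all genes were lower without overlap. With 1 array left out these medians ran from -0.34 (without vehicle replicate 1) to -0.01 (without vehicle replicate 4) for immediate early genes and from -0.12 (without 24 h replicate 4) to 0.03 (without vehicle replicate 4) for Kruppel-like factors, and the NF-kB median was -0.10 without vehicle replicate 4. Glucocorticoid-responsive genes, a list that also holds Per1 and Klf15, had 12 of 17 lower, 3 without overlap, and a median of -0.35, which was -0.23 without 24 h replicate 2. Polyadenylated histone genes were higher in all 11 measured members with a median of 0.33, though 1 did not overlap (5.09% of all genes), H2aj (0.37 ± 0.16), and the median was 0.18 without vehicle replicate 4, -0.06 after median scaling and -0.37 as deposited. The other probe sets of H2aj gave -0.24 and -0.09. Heat shock genes had a median of 0.10, which was 0.02 without 24 h replicate 2 and -0.01 without 24 h replicate 4 or vehicle replicate 1, and 1 member of 12 higher without overlap (5.09% of all genes), the chaperone Hsph1, at 8.46 to 8.79 and 8.80 to 9.32 (0.46 ± 0.16, and -0.29 as deposited).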

How the data were processed

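RNA from whole mouse skin was measured on 1-colour Affymetrix arrays after labelling of 200 ng of total RNA per the labels' protocols. The deposited values are linear intensities of 45101 probe sets per array, some below 0; their software, background correction and scaling: not given in the sources used here. The number of arrays limits the precision, and the labels do not say whether replicates are separate mice.

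Intensities were quantile-normalized over the 11 arrays, set to at least 0 and taken as log2(intensity + 16), which understates differences of dim genes. Of the probe sets, 34958 named 1 gene, 932 several and 9211 were unnamed here; 34754 were matched to the reference gene table. The brightest probe set stood for each gene, and genes above the 40th percentile on at least 3 arrays were kept. The groups were fitted with limma 3.58.1 in R 4.3.3 (lmFit and eBayes, two-sided, Benjamini-Hochberg over the genes kept), with no covariate, on all 11 arrays. In simulated data for this comparison over 13710 genes, 32% of 100 planted changes of 1 and 82% of 100 changes of 2 (log2) were recovered, and 8 unchanged genes were called.

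The members and gene lists were chosen with earlier results of these data known. Genes are named by a rule: the 12 of smallest p and the 8 largest differences beyond overlap in each direction, the members of each list with the smallest p (at most 4), all measured clock genes and reported BET inhibitor markers. Ifit1, Mx2, Slfn1, Nr1d1, H2-Eb1, Tchh and the genes of the closing observations were named after their values were seen, and not every gene under the rule is printed. Same-numbered vehicle and 24 h arrays had deviations that correlated at 0.25, 0.13 and 0.21 for replicates 1, 3 and 4, all above the criterion of 0.1 for taking the numbers as pairs, and arrays of different numbers at -0.35 to 0.21. Alternatives covered the normalization, filter, probe set choice, pseudocount, variance model, array weights, actin ratio, replicate block and each array left out. For a gene with 2 promoter windows, the one that held the motif is shown.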

Additional observations from a re-analysis of the deposited data

Results flagged for a closer look

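Each value here is the highest or lowest of the 4 arrays at 24 h and stood away from the other 3 by more than a Dixon test at 95% allows, which chance alone gives in about 1 group in 20. Of 91 genes checked 7 were marked, and of 56 gene lists 10.

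In 24 h replicate 4, Pdgfra read 8.12 and Mcpt4 5.16, both below the other 24 h arrays, while Lama3 read 9.64 and Wee1 8.08, both above them. The list means of the same array were low for complement (7.31), Fc receptors (6.19), macrophage and dendritic cell markers (7.66), lymphatic endothelial markers (6.18) and RNA sensors and interferon signalling genes (7.29). They were high for basal keratinocyte markers (11.02), hair follicle stem cell markers (8.98), P-TEFb and 7SK genes (8.77) and NF-kB genes (7.51). In 24 h replicate 2 the mean of the hair shaft genes was 8.87, where the other 24 h arrays lay at 5.46 to 5.77 and vehicle replicate 4 at 8.64.

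Arntl read 8.69 in 24 h replicate 3, above 3 arrays that nearly coincided and on the same side of vehicle as these. Hspa12b at 4.08 and Cyp17a1 at 4.73 in 24 h replicate 3 were the arrays not at the floor, the other 3 of each gene being at 4.00. With 3 values tied at the floor the Dixon ratio is 1 whatever the fourth value. Both marks, which are among the 7, were therefore fixed by the floor.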

How the results depend on the processing

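The count of 0 called genes held in every alternative run except 3: 1 gene with no filter (Mx2), 6 as deposited and 59 with array weights. Genes higher at an unadjusted p under 0.05, 433 in the main setting, numbered 22 as deposited, 210 after median scaling, 680 with no filter and 869 with array weights; genes lower, 613, numbered 3238 as deposited, 2444 after median scaling and 1068 with array weights. Genes beyond overlap, 698 higher and 826 lower, numbered 47 and 5524 as deposited and 252 and 2813 after median scaling. With 1 array left out they ran from 986 to 1219 higher and 1096 to 1487 lower, since fewer arrays must be separated; they passed 1.5 times the full count without 24 h replicates 1 or 4 or vehicle replicates 3 or 4 (higher) and without 24 h replicate 4 or vehicle replicate 4 (lower). Leaving out 1 array put those at an unadjusted p under 0.05 at 265 to 500 higher and 290 to 778 lower, the lowest without vehicle replicate 1. With the replicate number as a block, on the 7 arrays, 0 genes were called, against 455 genes up and 887 down before adjustment, and the pairing changed no call. Of the named genes, some differences changed sign. As deposited, where the median gene lay 0.62 below vehicle, Clock was at -0.39, Cry1 -0.13, Elovl4 -0.097, H2aj -0.37, Hexim1 -0.74, Hlf -0.56, Hsph1 -0.29, Lama3 -0.033, Myoz1 -0.071 and Rora -0.75. After median scaling, where it lay 0.31 below, Clock was at -0.081, H2aj -0.059, Hexim1 -0.42, Hlf -0.25 and Rora -0.43. Hexim1 was at -0.012 with the block and -0.0095 with cyclic loess, Rora at -0.054 with cyclic loess and -0.075 with array weights, and Hlf at -0.017 with the mean of all probe sets and -0.36 with array weights. With 1 array left out Arntl2 ran from -0.010 to 0.43, Hexim1 from -0.043 to 0.070, Hlf from -0.21 to 0.20, Krt27 from -2.43 to 0.53 and Rora from -0.17 to 0.16. Array weights moved list medians in both directions. Nearer to 0 were the medians of antigen processing and guanylate-binding genes (-0.33), macrophage and dendritic cell markers (-0.22) and dermal fibroblast markers (-0.22), as were those of the antiviral and sensor lists. Farther from 0 were those of clock activators (0.48) and clock repressors (-1.24). The cause of these changes was not tested. Values at or near the floor of 4.00 have no order, so differences of dim genes such as Hspa12b, Opalin and Cyp17a1 are limited by signal over background.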

Other observations

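Array weights called further genes outside the clock, named here after their values were seen. Hey1, a target of Notch signalling, differed by -1.06 ± 0.19 (SE) in that fit, Kcnn4, a calcium-activated potassium channel, by -1.64 ± 0.23, Depp1, a FOXO target, by -2.36 ± 0.41 and Il15ra, the receptor chain that presents interleukin 15, by -0.69 ± 0.13. On the higher side Ihh, the hedgehog ligand Indian hedgehog, differed by 0.93 ± 0.13, Duoxa1, a maturation factor of an epithelial oxidase, by 0.75 ± 0.14 and Tnfrsf18, the T cell receptor GITR, by 0.75 ± 0.14. None of these was called with equal weights.

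Genes of DNA replication and mitosis were high in 1 array of each group. The mean of 22 measured members was 8.23 in vehicle replicate 1 and 7.91 in 24 h replicate 4, against 7.01 and 7.02 in the other vehicle arrays and 6.66 to 7.23 in the other 24 h arrays. Over the groups the median difference was -0.23, with 6 members higher and 16 lower. Without vehicle replicate 1 that median was 0.09, and without 24 h replicate 4 it was -0.55.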
